A study of Mus musculus with 6 samples.

Results

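This account is about 9 genes of the interferon response and of class I antigen presentation in adult mouse cardiomyocytes (CMs). They were taken by gene symbol: the signalling factors *Stat2*, *Irf1*, *Irf7* and *Irf9*, the interferon-induced genes *Ifit1*, *Ifit3*, *Isg15* and *Bst2*, and *B2m*. Of these, 8 had a row among the 16448 genes of the table, and the expression of *Isg15*, a ubiquitin-like modifier, was not analysed here. RNA-seq of isolated CMs compared 3 CtrlCre mice (αMHC-Cre pos/+;Cpt1b+/+) with 3 Cpt1bcKO mice (αMHC-Cre pos/+;Cpt1b fl/fl), all on a C57BL/6 background and labelled as 8 to 12 weeks old. Both groups carry Cre under the αMHC promoter, which is active in CMs, so Cre itself is shared, and *Cpt1b* is deleted from embryonic stages on. The comparison asks how loss of CPT1B, the carnitine palmitoyltransferase that lets long-chain fatty acids into muscle mitochondria, goes with the level of these genes.

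Interferons are secreted proteins that signal through cell surface receptors and JAK kinases. Type I interferon leads to a complex with STAT2 and IRF9, which binds interferon-stimulated response elements in promoters, whereas the response to interferon-γ runs through GAS elements. IRF1 and IRF7 are themselves interferon-inducible factors that extend the response, and β2-microglobulin, the product of *B2m*, is the light chain of every classical class I molecule that shows peptides to cytotoxic T cells. Adult CMs are known for low class I levels compared with the endothelial and immune cells around them.

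Promoters of these genes are shown because interferon-regulated factors bind there. All 9 genes had an entry in the RefSeq promoter windows of GRCm38.p6, which run from 250 bases before to 50 bases after a gene start and carry the same primary coordinates as the mm10 build of the expression table. The letters TTTCNNTTTC, the core of an interferon-stimulated response element, and TTCNNNGAA, the core of a GAS element, were searched on both strands. Each line below reads 5′ to 3′ along the gene and ends upstream of the start, with the matched letters in capitals.
Ifit1, chr19:34640745-34640853, plus strand: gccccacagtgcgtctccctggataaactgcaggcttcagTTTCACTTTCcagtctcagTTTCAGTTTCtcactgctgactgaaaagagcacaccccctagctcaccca
Ifit3, chr19:34583333-34583456, plus strand: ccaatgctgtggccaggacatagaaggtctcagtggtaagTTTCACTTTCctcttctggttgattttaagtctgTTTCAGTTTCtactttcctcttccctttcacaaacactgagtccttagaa
Stat2, chr10:128270248-128270325, plus strand: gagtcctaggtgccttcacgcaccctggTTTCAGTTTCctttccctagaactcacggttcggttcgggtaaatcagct
B2m, chr2:122147508-122147597, plus strand: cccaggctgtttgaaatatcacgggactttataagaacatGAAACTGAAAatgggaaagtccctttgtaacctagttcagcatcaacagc
Bst2, chr8:71537547-71537648, minus strand: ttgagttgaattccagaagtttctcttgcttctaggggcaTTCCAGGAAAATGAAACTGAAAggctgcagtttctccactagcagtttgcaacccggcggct
Isg15, chr4:156200835-156200936, minus strand: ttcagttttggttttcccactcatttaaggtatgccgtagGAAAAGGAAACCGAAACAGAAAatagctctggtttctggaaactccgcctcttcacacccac
Irf1, chr11:53769884-53769972, plus strand: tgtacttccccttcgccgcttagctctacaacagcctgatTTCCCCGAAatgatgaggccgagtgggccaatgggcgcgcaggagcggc

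The pair of matches in *Ifit1* lay at bases −104 to −95 and −85 to −76 from the start, and the pair in *Ifit3* at −156 to −147 and −122 to −113. *Stat2* had its match at −222 to −213, and *B2m* had a match to the reverse complement at −139 to −130. In *Bst2*, matches to the reverse complement of TTTCNNTTTC at −130 to −121 and −124 to −115 share letters with each other and with a TTCNNNGAA match at −136 to −128, so the capitals there run together. In *Isg15*, 3 matches to the reverse complement of TTTCNNTTTC at −78 to −69, −72 to −63 and −66 to −57 share letters in the same way. *Irf1* had TTCNNNGAA at −90 to −82 from one of its 2 listed starts. Neither sequence of letters was present in the windows of *Irf7* and *Irf9*.

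TTTCNNTTTC was present in 6 of the 9 genes and in 3.44% of the 32851 windows of all genes, and TTCNNNGAA in 2 of the 9 genes and in 8.3% of all windows. A listed gene counted if any of its windows held the letters (11 windows for the 9 genes), whereas all genes were counted by window, so the units differ. Among 53 other interferon-induced genes, 40 had a window, and 20 of these (50%) held TTTCNNTTTC and 11 (27.5%) TTCNNNGAA. Among 23 genes of the class I pathway, 19 had a window, of which 4 (21.1%) and 2 (10.5%) held the respective letters. A match describes the sequence and is not evidence of binding in these cells.

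The values are normalized counts, that is, read counts scaled by the size factor of their sample and then rounded. They summed to between 13393411 and 31722217 per sample, of which mitochondrial-encoded and rRNA genes gave 74.8% to 78.1% in CtrlCre samples and 76.5%, 83.8% and 89.5% in Cpt1bcKO samples 1, 2 and 3, and to between 3146414 and 3551692 without these. A single read was worth 0.682 to 1.29 in the 5 samples in which this could be resolved, so a value near 10 rests on roughly as many reads. The targeted gene *Cpt1b* had values of 1861, 893 and 1443 in CtrlCre samples 1, 2 and 3 and of 211, 353 and 285 in Cpt1bcKO samples 1, 2 and 3, and it fell by 2.27 on the log2 scale (SE 0.267, limma adjusted *P* = 0.00338), as the labels state. Markers of CMs were abundant in all samples and summed to 244345 to 316047 in CtrlCre and to 184010 to 218405 in Cpt1bcKO samples. Markers of other cells were present too, as given further on. In bulk RNA, fewer cells of a type and less RNA per cell cannot be told apart.

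Of the 9 genes, 6 could be tested, and none of these passed an adjusted *P* value of 0.05 (limma on log2(value + 1), adjusted with the Benjamini–Hochberg method over 11364 genes), against 1.57% of all genes tested (0.906% lower and 0.66% higher). Of the 6 genes that passed the filter (3 or more samples at 10 or above), *Irf1*, *Irf7*, *Irf9* and *Ifit1* were lower in Cpt1bcKO samples at an unadjusted *P* value below 0.05, as were 7.22% of all genes tested, while 6.66% were higher. *Irf7* passed the filter only through the CtrlCre samples, which fixed its direction, so 3 genes remain to be read against that share. The 2 genes below the filter were *Ifit3* and *Bst2*. *B2m*, by far the most abundant of the 9 genes, had nearly equal means in both groups.

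**Figure D1:**
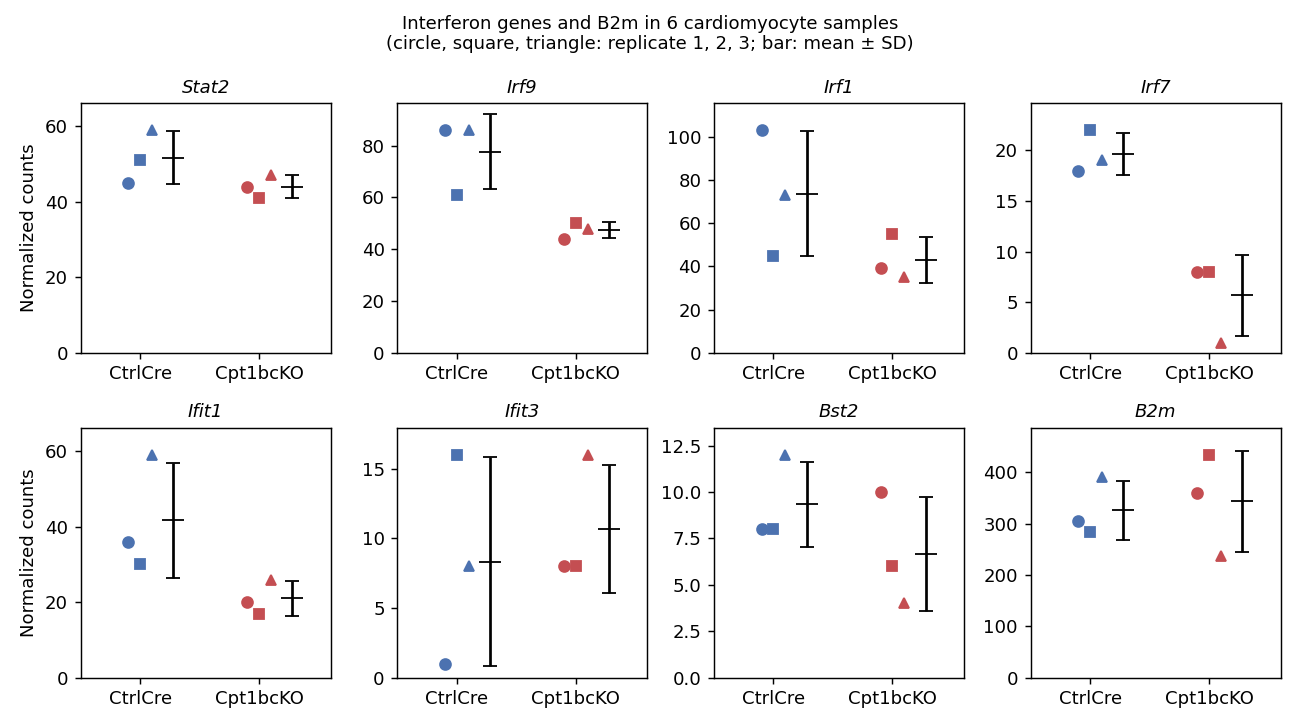
Normalized counts (y axis, from 0) of the 8 listed genes in 3 CtrlCre (blue) and 3 Cpt1bcKO (red) samples, with the mean ± SD as a bar beside the points. The groups do not overlap for *Irf9*, *Irf7* and *Ifit1*, all lower in Cpt1bcKO samples, as in 9.6% of all genes tested. *Irf7* passed the filter only through the CtrlCre samples, which fixed its direction. The groups overlap for the other 5 genes, and *B2m* has group means of 326 and 344.

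STAT2 and IRF9 belong to the complex that type I interferon forms. *Stat2* (chromosome 10, 128270576 to 128292849, plus strand) had 45, 51 and 59 normalized counts in CtrlCre samples 1, 2 and 3 and 44, 41 and 47 in the Cpt1bcKO samples. The groups overlapped, with a log2 fold change of −0.22 (SE 0.228, 95% interval −0.73 to 0.29, limma adjusted *P* = 0.718). *Irf9* (chromosome 14, 55603571 to 55610030, plus strand) had 86, 61 and 86 normalized counts in CtrlCre and 44, 50 and 48 in Cpt1bcKO samples. Every Cpt1bcKO value was below every CtrlCre value, with means of 77.7 ± 14.4 and 47.3 ± 3.06 (SD, n = 3). Groups that did not overlap were found in 9.6% of all genes tested with lower and in 9.13% with higher values in Cpt1bcKO samples. The log2 fold change was −0.69 (SE 0.225, 95% interval −1.19 to −0.19), with a limma *P* value of 0.0118 before and of 0.199 after adjustment. Its unadjusted *P* value stayed below 0.05 under all 16 alternative settings, the fold change ranging from −0.85 to −0.58, and its adjusted *P* value was between 0.11 and 0.459. The gene overlaps *Rnf31* on the same strand, and reads on both genes were left out of the counts.

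IRF1 and IRF7 are transcription factors that interferon itself induces. *Irf1* (chromosome 11, 53770014 to 53778374, plus strand) had 103, 45 and 73 normalized counts in CtrlCre and 39, 55 and 35 in Cpt1bcKO samples. CtrlCre sample 1 was the highest of all, and CtrlCre sample 2 lay below Cpt1bcKO sample 2. The log2 fold change was −0.71 (SE 0.319, 95% interval −1.42 to −0.0048, limma unadjusted *P* = 0.0487, adjusted *P* = 0.356), and it was −0.43 without CtrlCre sample 1, with an adjusted *P* value of 0.688. Its unadjusted *P* value was below 0.05 under 8 of 16 alternatives. Over all alternatives its adjusted *P* value ranged from 0.226 to 0.688.

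*Irf7* (chromosome 7, 141262706 to 141266481, minus strand) had 18, 22 and 19 normalized counts in CtrlCre and 8, 8 and 1 in Cpt1bcKO samples. All CtrlCre values were above all Cpt1bcKO values, with means of 19.7 ± 2.08 and 5.67 ± 4.04 (SD, n = 3). The gene passed the filter only through the CtrlCre samples, so it had to differ. Its log2 fold change was −1.92 (SE 0.622, 95% interval −3.30 to −0.54, limma unadjusted *P* = 0.0112, adjusted *P* = 0.195), and −1.19 without Cpt1bcKO sample 3 (adjusted *P* = 0.258). At 1 to 8 normalized counts the Cpt1bcKO levels rest on a handful of reads. *Irf7* also overlaps *Phrf1* on the opposite strand, whose mean was 163 normalized counts, and whether strand was used in counting was not given in the sources used here.

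*Ifit1* (chromosome 19, 34640871 to 34650009, plus strand) encodes a protein that binds foreign RNA ends, and it is a classical target of the complex with STAT2 and IRF9. It had 36, 30 and 59 normalized counts in CtrlCre and 20, 17 and 26 in Cpt1bcKO samples. No values overlapped between the groups, and the means were 41.7 ± 15.3 and 21.0 ± 4.58 (SD, n = 3). The log2 fold change was −0.92 (SE 0.331, 95% interval −1.65 to −0.18, limma unadjusted *P* = 0.0192, adjusted *P* = 0.242). It was −0.64 without CtrlCre sample 3, the highest sample. Its unadjusted *P* value was below 0.05 under 13 of 15 alternatives, and its adjusted *P* value ranged from 0.0949 to 0.605 over 15 alternatives.

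*Ifit3* (chromosome 19, 34583531 to 34588731, plus strand), which lies in the same cluster as *Ifit1* and shares its promoter letters, is an IFIT family member as well. It had 1, 16 and 8 normalized counts in CtrlCre and 8, 8 and 16 in Cpt1bcKO samples, a full overlap at values below the filter. In a fit with no filter its log2 fold change was 0.72 (SE 0.71, adjusted *P* = 0.741). *Ifit3* has a near-identical copy, *Ifit3b*, with 9, 5 and 12 normalized counts in CtrlCre and 3, 6 and 3 in Cpt1bcKO samples, and reads that fit both copies were not counted, so both levels are uncertain. *Ifit2*, the next gene of the cluster, had 97, 109 and 133 normalized counts in CtrlCre and 182, 98 and 132 in Cpt1bcKO samples (log2 fold change 0.25, SE 0.243, limma adjusted *P* = 0.701). *Ifit2* and *Ifit3b* were chosen after their values were seen, and the difference between *Ifit1* and its neighbours was not tested.

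*Bst2* (chromosome 8, 71534255 to 71537456, minus strand) encodes tetherin, which holds enveloped viruses at the cell surface. It had 8, 8 and 12 normalized counts in CtrlCre and 10, 6 and 4 in Cpt1bcKO samples, and the groups overlapped. The log2 fold change with no filter was −0.48 (SE 0.508, adjusted *P* = 0.761).

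*B2m* (chromosome 2, 122147686 to 122153083, plus strand) had 305, 283 and 391 normalized counts in CtrlCre and 359, 434 and 238 in Cpt1bcKO samples. The lowest and the highest value both came from Cpt1bcKO samples, and the groups overlapped fully. The log2 fold change was 0.045 (SE 0.227, limma adjusted *P* = 0.955) and its 95% interval of −0.46 to 0.55 covers changes in either direction. Its sign turned when single samples were left out, with values from −0.14 to 0.29. The summed level of 8 endothelial markers, cells that carry much class I, was 1182, 2275 and 2544 in CtrlCre and 2535, 2559 and 2198 in Cpt1bcKO samples, with positive log2 fold changes for 8 of 8 and a median of 0.34. None reached an unadjusted *P* value below 0.05 in limma (6.66% of all genes tested were higher), and the groups overlapped for all 8. The part of endothelial cells in the *B2m* values was not tested.

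Per kilobase of exon, *B2m* had a mean of 379.5 in CtrlCre and of 399.6 in Cpt1bcKO samples, far above the other genes. In CtrlCre samples the order went on with *Irf1* (18.5 per kilobase, range 11.3 to 25.9), *Ifit1* (15.7, 11.3 to 22.2), *Irf9* (14.4, 11.3 to 15.97), *Bst2* (10.3, 8.86 to 13.3), *Stat2* (8.72, 7.59 to 9.96), *Irf7* (5.21, 4.77 to 5.83) and *Ifit3* (4.78, 0.573 to 9.17). The ranges of neighbours in this order overlapped at each step except between *B2m* and *Irf1* and between *Stat2* and *Irf7*. In Cpt1bcKO samples *Irf1* (10.8), *Irf9* (8.79), *Ifit1* (7.91), *Stat2* (7.43), *Bst2* (7.38) and *Ifit3* (6.11) followed *B2m*, and *Irf7* (1.501) was lowest. Ranges of neighbours overlapped there for all pairs except *B2m* and *Irf1*, and *Ifit3* and *Irf7*.

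**Figure D2:**
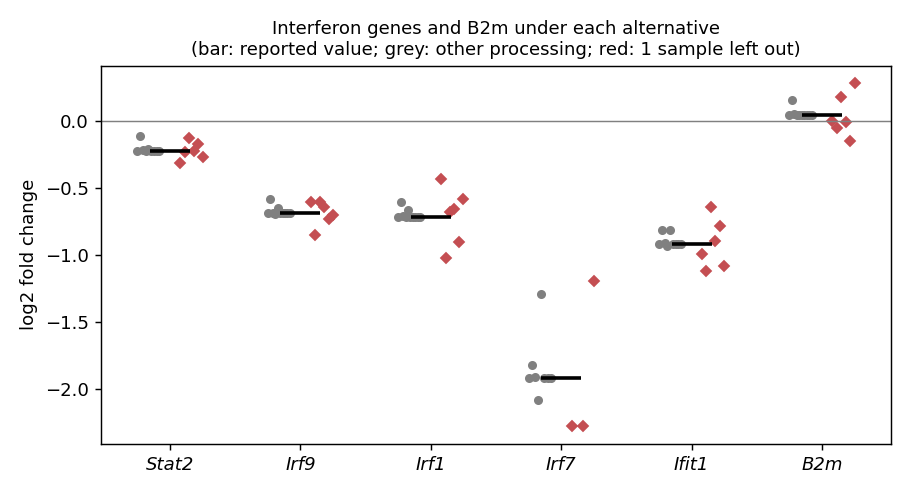
Log2 fold changes (y axis) of the 6 tested genes as reported (black bar), under other processing (grey circles) and with 1 sample left out (red diamonds). *Stat2*, *Irf9*, *Irf1* and *Ifit1* stay below 0 under every setting that could be fitted, whereas *B2m* spans −0.14 to 0.29. *Irf7* stays below 0 too, but it passed the filter only through the CtrlCre samples, which fixed its direction.

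The other genes of the pathway were taken from 6 lists with 134 genes, of which 110 had a row, 87 passed the filter and 23 did not. Of the 87 genes, 1 rose and 1 fell at an adjusted *P* value below 0.05, against 0.66% and 0.906% of all genes tested. At an unadjusted one 10 were lower and 2 higher, against 7.22% and 6.66% of all genes. Log2 fold changes were negative in 54 and positive in 33 genes, against 50.2% negative and a median of −0.00127 over all genes tested. Groups did not overlap for 10 lower and 5 higher genes, against 9.6% and 9.13% of all genes tested. With 87 genes, the adjusted count and the counts without overlap are near these shares. The unadjusted counts and those without overlap include *Cmpk2* among the lower and *H2-Q7* among the higher genes. Each of these passed the filter only through 1 group, which fixed its direction.

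Among receptors and their kinases, 9 of 17 genes had a row and all 9 were tested, with a median log2 fold change of −0.031 and none at an unadjusted *P* value below 0.05 in limma, against 7.22% lower and 6.66% higher among all genes, so a count of 0 says little about 9 genes. The 8 others are genes of the interferons themselves and were not analysed here. *Jak2* had 231, 229 and 180 normalized counts in CtrlCre and 205, 150 and 128 in Cpt1bcKO samples (log2 fold change −0.42, limma adjusted *P* = 0.404). *Il10rb*, a chain of the receptor for interferon-λ, had 371, 171 and 199 against 259, 117 and 89 (−0.74, adjusted *P* = 0.43, −0.40 without CtrlCre sample 1 and −1.18 without Cpt1bcKO sample 1). The kinase gene *Tyk2* had 36, 42 and 46 against 46, 51 and 62 (0.35, adjusted *P* = 0.566). The groups overlapped for *Jak2* and *Il10rb* and met at 46 for *Tyk2*.

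Of 13 further factors and inhibitors, 7 were tested, with a median log2 fold change of −0.23 and 6 negative values. *Socs3*, which encodes an inhibitor of JAK kinases, had 490, 154 and 190 normalized counts in CtrlCre and 142, 88 and 72 in Cpt1bcKO samples. The groups did not overlap and CtrlCre sample 1 stood far above the rest. The log2 fold change of −1.32 (SE 0.397) had a limma *P* value of 0.00727 before and of 0.162 after adjustment, and it was −0.82 without CtrlCre sample 1. *Pias1* and *Stat3* had log2 fold changes of −0.41 and −0.22 with adjusted *P* values of 0.392 and 0.54.

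Sensors of nucleic acids and their adaptors gave no gene at an unadjusted *P* value below 0.05 in limma among 10 tested, with a median of −0.14, against the same 7.22% and 6.66%, so a count of 0 says little about so few genes. *Myd88*, the adaptor of most Toll-like receptors, had 42, 46 and 46 normalized counts in CtrlCre and 35, 26 and 32 in Cpt1bcKO samples, and the groups did not overlap (log2 fold change −0.52, adjusted *P* = 0.385). *Adar*, an RNA-editing enzyme, and *Ifih1*, the sensor MDA5, had log2 fold changes of 0.40 and −0.32 with adjusted *P* values of 0.549 and 0.613. The value of *Adar* was 0.21 without CtrlCre sample 1, 0.61 without CtrlCre sample 2 and 0.25 without Cpt1bcKO sample 3.

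Of 53 other interferon-induced genes, 37 were tested and 26 had negative and 11 positive log2 fold changes, with a median of −0.27. *Iigp1* fell at an adjusted *P* value below 0.05, as did 0.906% of all genes tested, and 5 genes in all were lower and none higher at an unadjusted one, against 7.22% and 6.66% of all genes. One of these, *Cmpk2*, passed the filter only through the CtrlCre samples. *Iigp1* encodes an immunity-related GTPase that gathers on the vacuoles of intracellular parasites and is strongly induced by interferon-γ. It had 421, 207 and 216 normalized counts in CtrlCre and 39, 45 and 82 in Cpt1bcKO samples. Each Cpt1bcKO value was below each CtrlCre value, with means of 281 ± 121 and 55.3 ± 23.3 (SD, n = 3), and it fell by 2.32 on the log2 scale (SE 0.331, 95% interval −3.06 to −1.59, limma adjusted *P* = 0.00906). The call was lost without Cpt1bcKO sample 2 (adjusted *P* = 0.0627) and with a variance prior without a trend (adjusted *P* = 0.0717), at fold changes of −2.21 and −2.32.

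Among 6 immunity-related GTPase genes of the list, a group formed after their values were seen, the 4 tested had log2 fold changes of −2.32 to −0.67, and 2 were below the filter. *Igtp* had 98, 27 and 65 normalized counts in CtrlCre and 12, 21 and 30 in Cpt1bcKO samples (log2 fold change −1.46, SE 0.472, limma unadjusted *P* = 0.0111, adjusted *P* = 0.195). *Irgm1* had 127, 80 and 79 against 59, 49 and 67 (−0.67, SE 0.246, unadjusted *P* = 0.0203, adjusted *P* = 0.25). *Irgm2*, which lay outside the rule, had 112, 50 and 85 against 44, 45 and 53 (−0.72, SE 0.293, unadjusted *P* = 0.0338, adjusted *P* = 0.302). In all 4 genes CtrlCre sample 1 was the highest of the 6 samples, as it was for *Irf1* and *Socs3*. That sample was also the highest for genes outside the pathway, among them *Cpt1b* and the CM marker *Myh6*, but not for *Stat2*, *Ifit1* or *B2m*. Without CtrlCre sample 1, the log2 fold change of *Igtp* was −1.05 (limma unadjusted *P* = 0.0543) and that of *Irgm1* −0.45 (unadjusted *P* = 0.0917). That of *Iigp1* was then −1.99 (adjusted *P* = 0.0219). *Igtp* and *Irgm2* overlap each other on the same strand, so that reads on both were not counted. The 5 guanylate-binding protein genes, another group of GTPases, had a median of −0.31, and none reached an unadjusted *P* value below 0.05 in limma, which says little for 5 genes when 7.22% of all genes were lower and 6.66% higher.

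**Figure D3:**
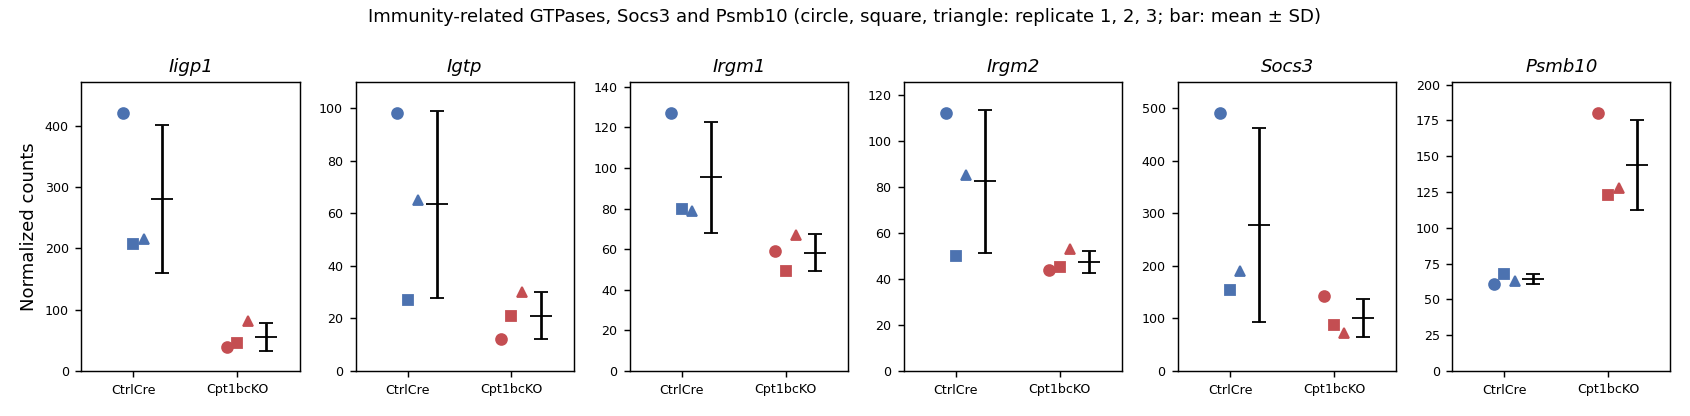
Normalized counts (y axis, from 0) of 4 immunity-related GTPase genes, *Socs3* and *Psmb10* in 3 CtrlCre (blue) and 3 Cpt1bcKO (red) samples, with the mean ± SD as a bar. CtrlCre replicate 1 (circle) is highest for the GTPase genes and *Socs3*, and *Psmb10* is above 120 in all Cpt1bcKO samples and below 70 in all CtrlCre samples.

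All 23 genes of the class I pathway had a row and 20 were tested, with 10 negative and 10 positive log2 fold changes and a median of −0.050. *Psmb10* rose at an adjusted *P* value below 0.05, as did 0.66% of all genes tested. At an unadjusted one 4 genes were lower and 2 higher, against 7.22% and 6.66% of all genes, and 1 of the higher genes, *H2-Q7*, passed the filter only through the Cpt1bcKO samples. *Psmb10* (chromosome 8, 105935739 to 105938444, minus strand) encodes a catalytic subunit of the immunoproteasome, which cuts proteins into peptides for class I molecules. It had 61, 68 and 63 normalized counts in CtrlCre and 180, 123 and 128 in Cpt1bcKO samples, with no overlap and means of 64 ± 3.61 and 144 ± 31.6 (SD, n = 3). It rose by 1.13 on the log2 scale (SE 0.207, 95% interval 0.68 to 1.59, limma adjusted *P* = 0.0236). The call was lost without CtrlCre sample 1, 2 or 3 or Cpt1bcKO sample 2 (adjusted *P* values of 0.0747, 0.084, 0.0994 and 0.0859) and with a prior without a trend (0.091), at fold changes of up to 1.23. The other catalytic subunits, *Psmb8* and *Psmb9*, were below the filter.

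Split by role after the values were seen, the class I pathway genes had log2 fold changes of different sign. Apart from *H2-Q7*, whose direction the filter fixed, 6 of 7 tested heavy chain genes had positive log2 fold changes, with a median of 0.27. None of these 7 reached an unadjusted *P* value below 0.05 in limma, and 6.66% of all genes were higher. Of 8 genes for peptide transport, trimming and loading, 7 had negative ones, with a median of −0.37 (6 when samples were scaled without mitochondrial and rRNA genes). Only *Canx*, *Calr* and *Pdia3* of these 8 were lower at an unadjusted limma *P* value below 0.05, as were 7.22% of all genes. Of 3 tested proteasome-related genes, *Psmb10* had a positive log2 fold change and 2 had negative ones. These were *Psme1* (−0.73, limma unadjusted *P* = 0.0356, adjusted *P* = 0.31) and *Psme2* (−0.23, adjusted *P* = 0.679). The heavy chain genes given here, *Psme1* and *Psme2* lay outside the rule for named genes and were chosen after their values were seen. *H2-K1* had 103, 97 and 123 normalized counts in CtrlCre and 101, 165 and 170 in Cpt1bcKO samples (0.40, limma adjusted *P* = 0.476). *H2-D1* had 104, 143 and 185 against 167, 226 and 127 (0.27, adjusted *P* = 0.701). *H2-Q7* had 3, 4 and 5 against 10, 18 and 10. Heavy chain genes resemble each other, and since reads matching several places were left out of the counts, their levels are uncertain.

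The chaperone genes *Canx* and *Calr*, whose products fold many glycoproteins besides class I molecules, were the next in rank in this list. *Canx* had 2943, 2115 and 2809 normalized counts in CtrlCre and 1781, 1528 and 1915 in Cpt1bcKO samples (log2 fold change −0.58, SE 0.165, limma unadjusted *P* = 0.00515, adjusted *P* = 0.137). *Calr* had 4949, 2215 and 3247 against 1933, 1774 and 2118 (−0.76, SE 0.246, unadjusted *P* = 0.0108, adjusted *P* = 0.192), and −0.47 without CtrlCre sample 1. The groups did not overlap for either gene. Class II genes were low, with 4 of 11 tested and 3 positive log2 fold changes. *H2-Eb1*, *H2-Ab1* and *Ctss* had 9 to 15, 3 to 20 and 9 to 29 normalized counts in CtrlCre and 16 to 19, 10 to 13 and 3 to 23 in Cpt1bcKO samples, with adjusted *P* values of 0.566, 0.873 and 0.863.

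**Figure D4:**
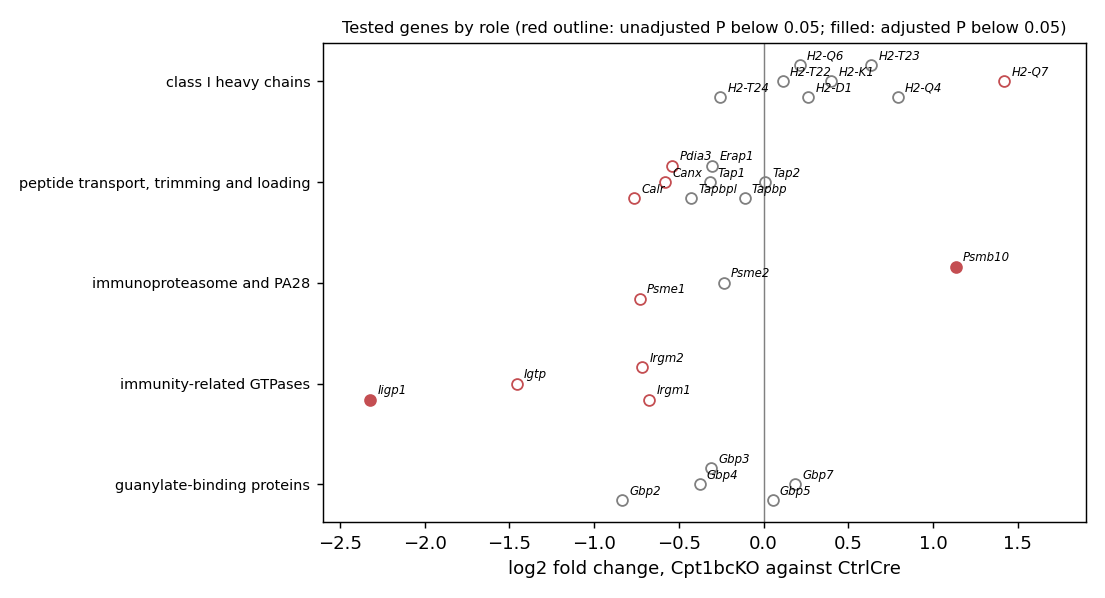
Log2 fold changes (x axis) of tested pathway genes grouped by role (y axis), each point a gene, with a red outline for an unadjusted and a filled point for an adjusted *P* value below 0.05. The 4 tested immunity-related GTPase genes lie between −2.32 and −0.67, and 7 of 8 heavy chain genes lie above 0, 1 of them *H2-Q7*, which passed the filter only through the Cpt1bcKO samples.

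**Figure D5:**
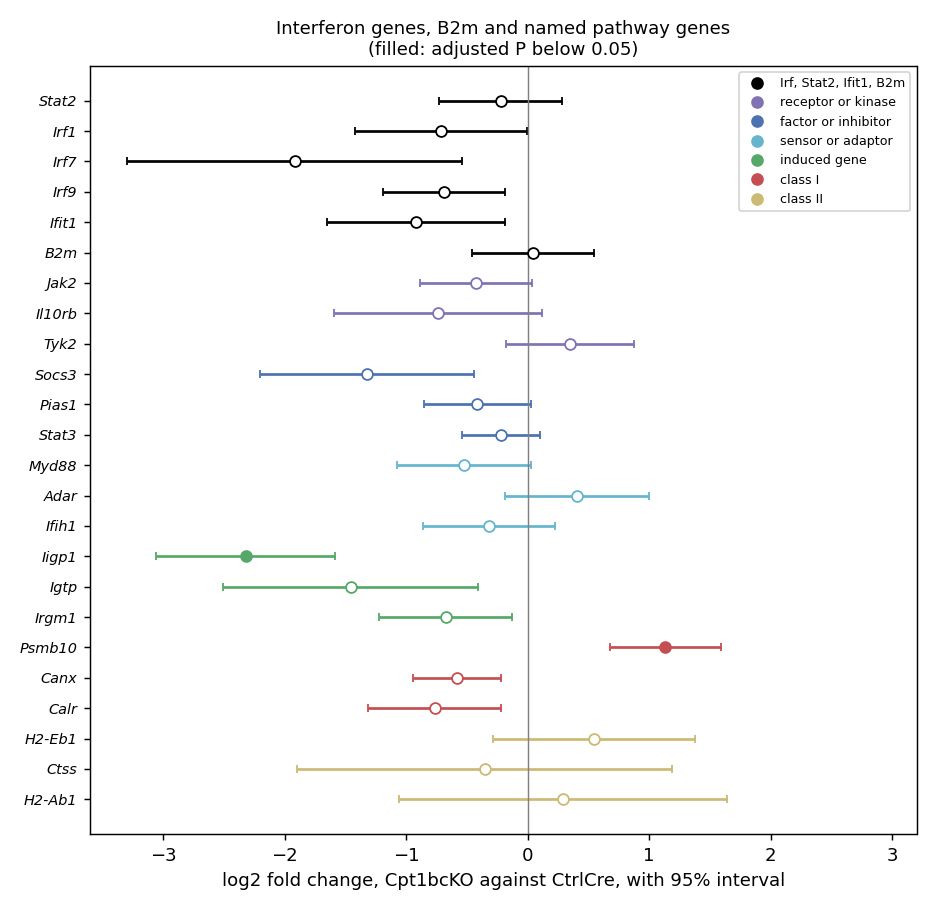
Log2 fold change of Cpt1bcKO against CtrlCre samples (x axis) with its 95% interval for the 6 tested genes of the set and the 18 named genes of the pathway, coloured by list. Only *Iigp1* at −2.32 and *Psmb10* at 1.13 are filled, which marks an adjusted *P* value below 0.05.

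Markers of other cells that carry interferon and class I genes were set beside these values. The 8 fibroblast marker genes summed to 482, 735 and 704 in CtrlCre and to 1241, 1184 and 1025 in Cpt1bcKO samples, and the log2 fold changes of all 7 tested were positive, with a median of 1.11. Of these, *Col1a1* and *Lum* rose, both with a limma adjusted *P* value of 0.0143 (0.66% of all genes tested rose), 6 were higher at an unadjusted one (6.66% of all genes) and 5 did not overlap (9.13%). The 6 mural cell markers summed to 1067, 1724 and 2214 in CtrlCre and to 1704, 1500 and 1139 in Cpt1bcKO samples. Of 5 tested, 3 had positive and 2 negative log2 fold changes, and none passed in limma (1.57% of all genes did). One, *Acta2*, was lower at an unadjusted *P* value, as were 7.22% of all genes (log2 fold change −1.20, adjusted *P* = 0.0835). *Acta2* was highest in CtrlCre sample 1 (526), where *Rgs5* (463), *Pdgfrb* (48), *Kcnj8* (16) and *Myh11* (14) were lowest. The 11 listed macrophage markers of 12 summed to 197, 148 and 271 in CtrlCre and to 192, 207 and 223 in Cpt1bcKO samples. The sums of endothelial markers, given above, and of fibroblast and mural markers were lowest in CtrlCre sample 1. The sum of CM markers was highest there, and that of macrophage markers was lowest in CtrlCre sample 2. CtrlCre sample 1 also had the highest *Irf1*, *Socs3* and *Iigp1* values. The sum of CM markers, to which *Myh6* gave the most, was lower in each Cpt1bcKO sample than in each CtrlCre sample. The groups overlapped for 4 of the 8 markers, and *Tnnt2* was highest in Cpt1bcKO sample 3 (24159, against 16328 to 23087 in CtrlCre samples). The other 4 were lower without overlap, as were 9.6% of all genes tested. Log2 fold changes were negative for 8 of 8, with none at an adjusted *P* value below 0.05 in limma (0.906% of all genes were lower) and 2 at an unadjusted one (7.22% of all genes). The 8 lymphocyte and the 5 neutrophil markers had no row. The part of these cells in the interferon gene values was not tested.

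The mean profile of the 6 tested genes, as deviations on the log2 scale, was 0.40, 0.14 and 0.57 in CtrlCre and −0.27, −0.17 and −0.66 in Cpt1bcKO samples. Among 6729 genes outside the lists with a mean of at least 50, those nearest to it over the 6 samples by root mean square distance were *Tsc22d3* (0.0771), *Egr1* (0.0798), *Epn3* (0.1), *Ubfd1* (0.108) and *Mcfd2* (0.108). *Tsc22d3*, a glucocorticoid-induced gene, had 172, 142 and 216 normalized counts in CtrlCre and 114, 116 and 93 in Cpt1bcKO samples. *Egr1*, an immediate early gene, had 878, 637 and 941 against 550, 577 and 437. The choice of the nearest genes fixes this likeness, which is a description over 6 samples. It rests on *Irf7*, which passed the filter only through the CtrlCre samples. Without it, in a comparison added after seeing the data, the mean profile of 5 genes was 0.31, −0.061 and 0.50 in CtrlCre and −0.28, −0.16 and −0.31 in Cpt1bcKO samples. *Egr1* then ranked 19, *Tsc22d3* 31, *Ubfd1* 140, *Mcfd2* 158 and *Epn3* 226, and the nearest genes were *Klhl40* (0.0608), *Ofd1* (0.0745), *Hand2* (0.0763), *Frmd6* (0.0847) and *Dnajc21* (0.0951).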

How the data were processed

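Ventricular CMs of 6 mice were isolated by enzymatic perfusion, and total RNA was sequenced by the authors with the SMARTer Stranded Total RNA kit. Per the labels, reads were trimmed with Trimmomatic 0.36, aligned to mm10 (GRCm38.p5) with STAR 2.5.4b and counted on genes with featureCounts 1.6.0, leaving out reads on several genes or places. The annotation release was not given in the sources used here. The values deposited by the authors are these counts divided by DESeq2 (1.14.1) size factors and rounded, so they were treated as a score and no count model was run. Group means, fold changes and *P* values computed by the authors were not used.

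Values were compared as log2(value + 1) with limma 3.58.1 (R 4.3.3, lmFit and eBayes with a trend), for genes that reached 10 in 3 or more samples, with group as the only term and Benjamini–Hochberg adjustment over 11364 genes. Fold changes on this scale understate those of low genes. The steps were tested on simulated data. Replicates are separate mice. Total values and the worth of a read, which set the precision of low values, are given in the text.

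The 9 genes and all lists were chosen with earlier results of these data known. Named genes are the 9 genes, *Cpt1b*, from each list the genes with an adjusted *P* value below 0.05 and the 3 with the lowest *P* values, and the 5 nearest profiles. Other genes are marked in the text as chosen or grouped after seeing their values. Exceptions are cell markers, genes named for an overlap, *Pdia3*, *Cmpk2*, *Psmb8*, *Psmb9* and the guanylate-binding protein genes. These also lay outside this rule. Exon lengths come from GENCODE vM21 and promoters from RefSeq. Python 3.11.15 made the tables and figures. There were 16 alternatives: a replicate block, 2 other scalings, 2 pseudocounts, 3 filters, 2 priors and leaving out each of the 6 samples. One gene of the signalling list is not reported here.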

Additional observations from a re-analysis of the deposited data

How the results depend on the processing

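No adjusted limma *P* value of the genes tested among the 9 was below 0.05 under the 16 alternatives, against 1 to 4 unadjusted ones. The alternatives tested 3 to 8 of the 9 genes. *Irf7* was below the filter in 5 of them, *Stat2* and *Ifit1* with a mean of at least 50, and *Isg15* had no row. With a replicate block, 603 genes and 8 pathway genes (*Il10rb*, *Socs3*, *Iigp1*, *Psmb10*, *Psme1*, *Calr*, *Canx* and *Pdia3*) passed, against 178 and 2 in the reported fit. The numbers were not taken as pairs, since correlations of deviations between same-numbered samples were 0.376, 0.255 and 0.0684 across genes, and CtrlCre sample 3 and Cpt1bcKO sample 3 each correlated better with another number. With a variance prior without a trend, 41 genes and 0 pathway genes passed (12 at an unadjusted *P* value). Leaving out 1 sample gave 40 (without Cpt1bcKO sample 2) to 305 genes (without Cpt1bcKO sample 1) and 0 to 2 pathway genes, and turned the sign of *B2m* (−0.144 to 0.288), *Ctss* (−0.853 to 0.44) and *H2-Ab1* (−0.35 to 0.846). Among uncalled values, leaving out 1 sample also moved *Stat2* to −0.122 (without CtrlCre sample 3), *Jak2* to −0.272 and *Tyk2* to 0.231 (both without Cpt1bcKO sample 3), *Stat3* to −0.145 (without CtrlCre sample 1) and *Ifih1* to −0.211 (without Cpt1bcKO sample 2). Where 1 sample is left out, its group has 2.

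Scaling to the sum without mitochondrial-encoded and rRNA genes moved the median of all genes to 0.108 and the split of called genes to 103 higher and 74 lower, from 75 higher and 103 lower. Among uncalled values, this scaling also moved *Stat2* to −0.111, *Stat3* to −0.11, *Ifih1* to −0.208 and *B2m* to 0.157. The alternatives gave 367 values for the tested genes of the set and the named pathway genes, without *Cpt1b* and the nearest profiles. Of these values, 350 kept their direction and side of the threshold, 7 lost it, 4 gained it and 6 changed sign. Values near 10 normalized counts, those of *Irf7*, *Ifit3* and *Bst2*, rest on few reads. With 3 mice in each group, *P* values rest only on the spread between these mice. In the reported fit, limma draws the variance of each gene toward a trend over all genes tested.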
